A study of Mus musculus with 12 samples.

Results

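DNA replication and S-phase genes were followed in calvarial osteoblast cultures of WT and Bcl3-/- mice. The 41 members were taken as a list of named genes of replication origins, replication forks and nucleotide supply, among 49585 genes in the count table, and each symbol matched 1 Ensembl identifier. Cells came from the skull bones of C57BL/6J pups 3 to 5 days old, were grown to confluence and were then given 50 µg/mL ascorbic acid and 2 mM β-glycerophosphate, which induce osteoblast differentiation. RNA was taken after 1 and 3 days of this treatment from WT cultures and from cultures with a Bcl3 knockout, which gave 4 groups of 3 libraries. All 12 libraries had received the osteogenic medium, so no untreated cells were compared. Per the labels a replicate held 1 to 3 calvariae, where the published methods give the larger number throughout. The labels carry 6 culture codes that each occur on both days, and libraries that share a code are read here as the same culture.

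A cell prepares for S phase by loading the ring-shaped Mcm2 to Mcm7 helicase on origins, a step called licensing that needs the origin recognition complex, Cdc6 and Cdt1. At the start of S phase the helicase is switched on by Cdc45, the GINS complex and Mcm10, and polymerases then copy both strands with the sliding clamp Pcna. Many of these genes are transcribed by E2F factors when cyclin E kinase inactivates the retinoblastoma proteins. Osteoblast precursors divide until they are confluent and divide less as they mature, so the genes serve as a readout of proliferation in such cultures. In RNA from whole cultures, fewer cells in S phase and less RNA of a gene per cell cannot be told apart.

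Gene counts per library lay between 20009732 and 41953891, with a median of 31792039. All 41 members passed the filter on low counts, and the lowest value of any member in any library was 1.35 CPM (read counts scaled to library size with TMM factors), for Fen1. Values of 3 libraries are given in the order of their replicate numbers, and negative log2 fold changes are lower in Bcl3-/- or on day 3, with adjusted p from edgeR's quasi-likelihood test after Benjamini-Hochberg adjustment over all genes tested. The Bcl3 gene itself gave 17.95, 21.8 and 17.8 CPM for WT against 17.5, 19.7 and 19.2 for Bcl3-/- on day 1, and 14.8, 15.9 and 12.8 against 10.2, 9.72 and 8.31 on day 3, so its reads overlapped between the labels on day 1 and were lower, although present, in libraries labelled Bcl3-/- on day 3. The deleted part of the gene is not known from the labels, so reads outside it check nothing. Every direction by genotype therefore rests on the labels. The osteoblast markers Runx2, Alpl, Col1a1 and Ibsp were among the 10 of 10 listed markers that passed the filter, and Col1a1 alone lay between 22628 and 49263 CPM, while Ibsp lay between 0.678 and 24.1 CPM. The osteocalcin genes passed at low levels, with Bglap between 0.136 and 3.92 CPM and Bglap2 between 0.271 and 7.55 CPM.

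The members stepped down through the groups, from WT to Bcl3-/- on day 1 and again from WT to Bcl3-/- on day 3. On day 1 their mean log2 CPM was 5.48 ± 0.02 for WT and 5.30 ± 0.01 for Bcl3-/-, and on day 3 it was 4.84 ± 0.09 and 4.48 ± 0.03 (each SD, n = 3). By library it ran from 5.47 to 5.51, from 5.29 to 5.31, from 4.74 to 4.91 and from 4.45 to 4.51 in these groups, so no 2 groups overlapped. Day 3 WT was the most spread group, and its replicate 3 was the lowest of its libraries. Group means fell in this order for 37 of the 41 members, against 19.4% of all genes tested. For 20 members, each library of a group lay above each library of the next, which held for 2.53% of all genes tested. Those 20 were Ccne1, Ccne2, Cdc45, Cdc6, Mcm2, Mcm3, Mcm4, Mcm5, Mcm6, Mcm7, Mcm10, Orc1, Pole, Pole2, Prim1, Prim2, Rfc2, Rfc5, Rrm1 and Rrm2. The 4 members whose means broke the order were Gins1, Lig1, Pold1 and Uhrf1, each with a mean in day 1 Bcl3-/- above that in day 1 WT. This ordering of groups was looked for after the values were seen and was not tested.

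**Figure D1:**
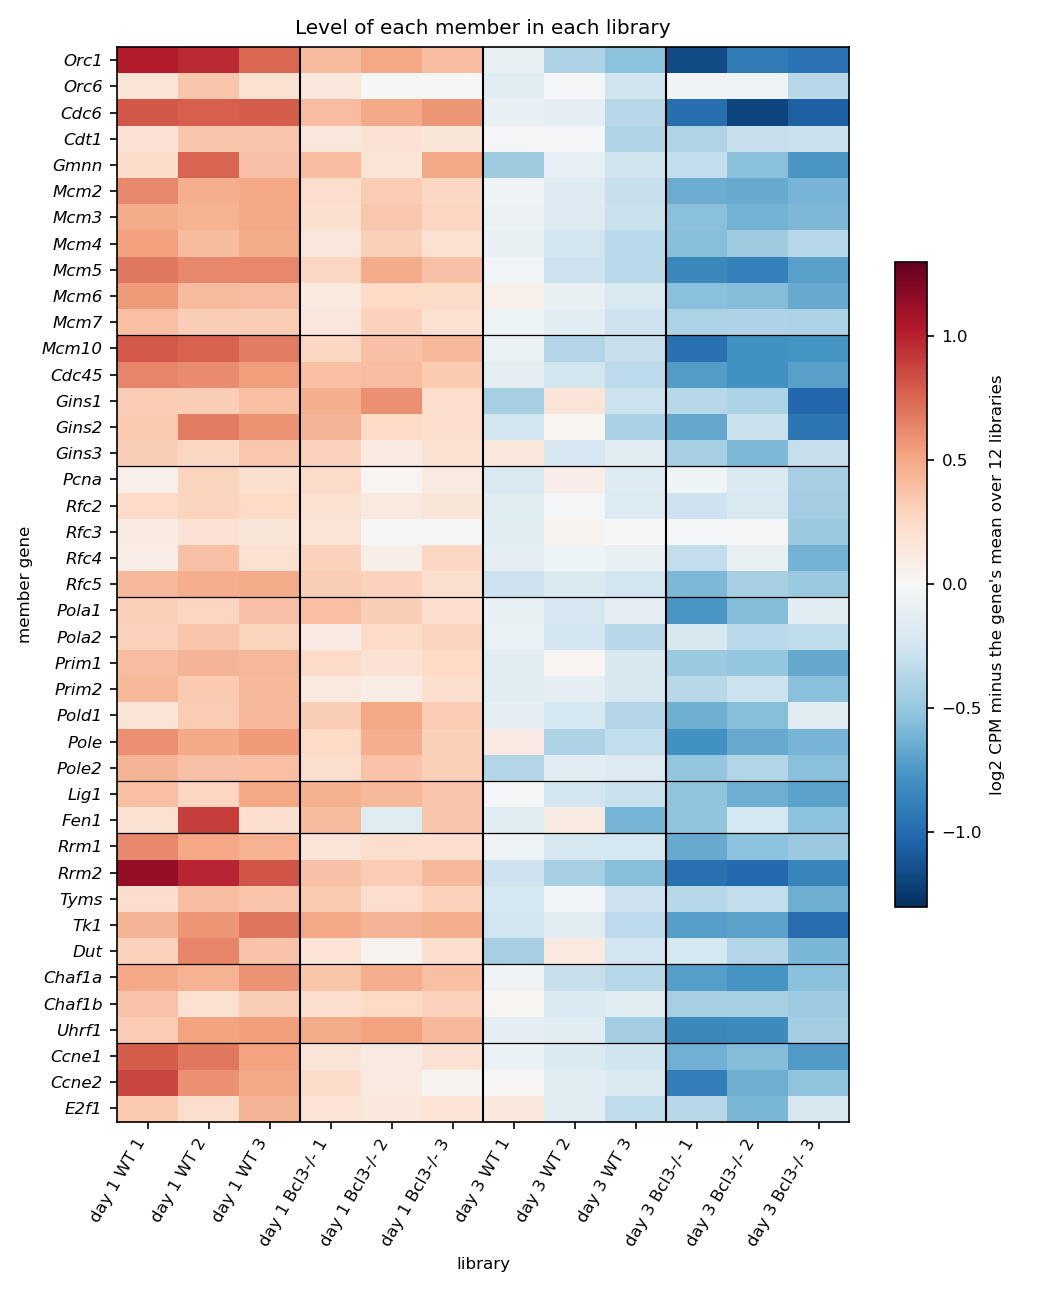
Level of the 41 members (vertical axis, grouped by role with thin lines between roles) in each of the 12 libraries (horizontal axis), as log2 CPM minus the gene's mean over all libraries. Red is above and blue below the gene's mean; each day 1 library is above the mean for at least 39 members, and each day 3 library labelled Bcl3-/- is below it for all 41.

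Promoter windows were read for every member that had one, because many replication genes are known targets of E2F. The RefSeq promoter table (GRCm38.p6, 250 bases before to 50 bases after a gene start) held windows for 33 of the 41 members, 38 windows in all; Gins1, Pole, Gmnn, Rfc2, Prim2, Gins2, Ccne2 and Mcm4 had no entry. A loose form of the E2F core, TTTNNCGC with any base at N, was searched on both strands. It was in 42.1% of the member windows and in 5.17% of all 32851 windows. Its forms TTTCCCGC and TTTGGCGC, which are counted within that core, were each in 15.8% of member windows and in 1.07% and 0.514% of all windows. CCAAT, the letters of NF-Y sites, was in 52.6% of member windows against 37.4% of all windows. TTTGAA, the core of the CHR element of genes expressed in G2 and mitosis, was in 10.5% against 17.9%. The core was in a window of 15 of the 33 members, and Ccne1, Rrm1 and Rrm2 were among those without it. A match is a description of letters and not a measured binding site. Whether the core goes with the changes between groups was not tested. One window is shown for each of the first 6 roles that had a member with the core, choosing the member with the smallest p for time in WT, and the core is in capitals.
Cdc6: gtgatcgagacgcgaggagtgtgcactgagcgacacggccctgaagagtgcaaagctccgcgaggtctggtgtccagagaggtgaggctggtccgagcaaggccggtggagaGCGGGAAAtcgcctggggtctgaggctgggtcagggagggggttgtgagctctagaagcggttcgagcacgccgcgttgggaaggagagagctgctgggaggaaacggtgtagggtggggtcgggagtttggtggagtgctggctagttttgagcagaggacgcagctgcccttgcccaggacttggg
Gins3: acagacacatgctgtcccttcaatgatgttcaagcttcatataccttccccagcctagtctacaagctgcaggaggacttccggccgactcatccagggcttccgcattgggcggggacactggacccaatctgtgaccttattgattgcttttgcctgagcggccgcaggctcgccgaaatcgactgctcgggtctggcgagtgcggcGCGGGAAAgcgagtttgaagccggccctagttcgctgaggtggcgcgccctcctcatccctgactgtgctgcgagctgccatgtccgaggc
Rfc3: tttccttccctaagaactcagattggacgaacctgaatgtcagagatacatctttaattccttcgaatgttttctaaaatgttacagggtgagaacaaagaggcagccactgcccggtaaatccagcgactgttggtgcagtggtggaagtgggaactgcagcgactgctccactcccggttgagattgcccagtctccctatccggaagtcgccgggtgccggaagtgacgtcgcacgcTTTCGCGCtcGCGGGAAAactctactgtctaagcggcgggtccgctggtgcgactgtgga
Pole2: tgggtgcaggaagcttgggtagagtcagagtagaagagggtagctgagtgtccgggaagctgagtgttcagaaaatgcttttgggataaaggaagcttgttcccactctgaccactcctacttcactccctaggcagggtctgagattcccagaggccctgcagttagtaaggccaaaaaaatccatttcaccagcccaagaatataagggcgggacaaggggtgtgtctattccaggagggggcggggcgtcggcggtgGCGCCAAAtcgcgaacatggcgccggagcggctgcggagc
Lig1: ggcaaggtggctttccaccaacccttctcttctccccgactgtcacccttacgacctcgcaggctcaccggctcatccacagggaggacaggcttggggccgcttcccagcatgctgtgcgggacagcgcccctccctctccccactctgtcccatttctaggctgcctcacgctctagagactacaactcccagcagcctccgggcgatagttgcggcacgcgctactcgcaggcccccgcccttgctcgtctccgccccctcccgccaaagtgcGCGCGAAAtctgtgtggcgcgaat
Tyms: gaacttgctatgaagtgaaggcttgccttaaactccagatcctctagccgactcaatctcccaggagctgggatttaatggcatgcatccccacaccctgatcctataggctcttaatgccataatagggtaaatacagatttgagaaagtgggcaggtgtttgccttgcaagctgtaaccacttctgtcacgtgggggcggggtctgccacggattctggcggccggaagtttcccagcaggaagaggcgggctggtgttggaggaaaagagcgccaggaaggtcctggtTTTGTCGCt
The window of Cdc6 lies at chr11:98907901-98908200, plus strand, and its match starts 138 bases before the RefSeq gene start, from which all positions here are counted. That of Gins3 lies at chr8:95633309-95633608, plus strand, with the match 41 bases before the start. The window of Rfc3 is at chr5:151651159-151651458, minus strand and holds 2 matches, of which the first starts 10 bases before the gene start and the second on base 1 of the transcript. The GENCODE M21 annotation starts Cdc6, Gins3 and Rfc3 further upstream, at 98907801, 95633453 and 151651242. By that annotation the matches of these 3 genes lie after the gene start. Matches begin on transcript base 11 for Pole2 (chr12:69228141-69228440, minus strand), base 27 for Lig1 (chr7:13278576-13278875, plus strand, the 1 of its 3 windows with a match) and base 42 for Tyms (chr5:30073576-30073875, minus strand). Of these 6 genes, edgeR called Rfc3 in no comparison and the other 5 over time in both genotypes.

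From day 1 to day 3, replication genes fell in cultures of both labels. In WT cultures 36 of 41 members were called lower at an adjusted p under 0.05, against 17.9% of all 16318 genes tested, and 0 were called higher, against 20.6%. In cultures labelled Bcl3-/- 38 of 41 were called lower, against 17.2%, and 0 higher, against 16.2%. No member was higher at an unadjusted p under 0.05 either, and DESeq2 and limma on FPKM values also called 0 higher in both. The median log2 fold change of the members was -0.64 in WT and -0.79 in Bcl3-/- cultures, where the medians of all genes tested were 0.00 and 0.00. A fall of over 1 log2 unit was called for 2 members in WT (Orc1 and Rrm2), against 2.6% of all genes tested, and for 11 members in Bcl3-/- cultures, against 4.4%. The shared culture codes allow the change to be read within a culture, although paired libraries did not deviate together in the Bcl3-/- cultures (correlations of -0.16 to -0.02). Every 1 of the 41 members was lower on day 3 than on day 1 in each of the 6 cultures. Within a single culture between 49.1 and 51.3% of all genes tested were lower, and the share lower in all 6 was not computed. Except for Pcna in WT, the libraries of the 2 days did not overlap for any member. The share of all genes tested without such overlap over time is not given here. For members without overlap any pairing of libraries would give the same result, so the pairing adds no support. For Pcna in WT the fall in each culture does depend on the pairing. With culture as a block, 39 members were called lower in WT and 38 in Bcl3-/- cultures, the added ones being Gins1, Fen1 (adjusted p = 0.0439) and Pcna (adjusted p = 0.023). The members not called in WT were Fen1, Gins1, Pcna, Rfc3 and Rfc4, and those not called in Bcl3-/- cultures were Fen1, Orc6 and Rfc3.

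**Figure D2:**
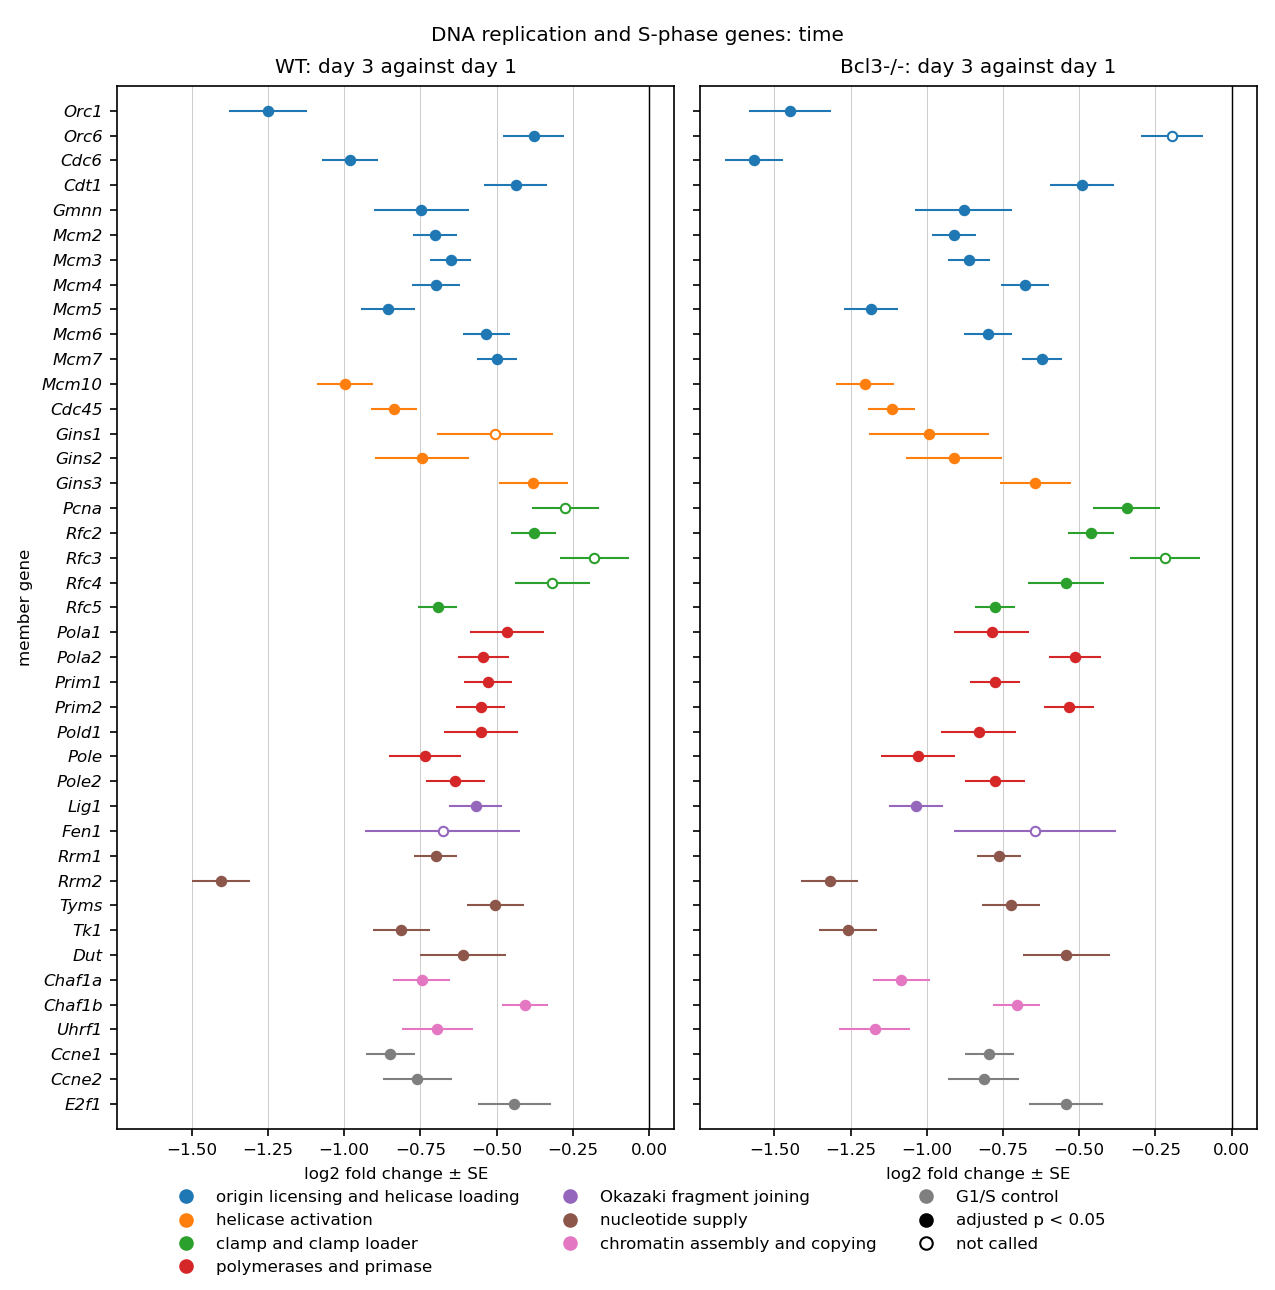
Log2 fold change ± SE (horizontal axis) of each member (vertical axis, colored by role) between the first and the later day in WT (left) and in Bcl3-/- cultures (right). Filled points have an adjusted p under 0.05; every estimate lies below 0, from -1.40 to -0.18 in WT and from -1.57 to -0.20 in Bcl3-/- cultures.

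Between genotypes on day 1, 10 of the 41 members were lower in libraries labelled Bcl3-/-, against 6.26% of all genes tested, and 0 were higher, against 9.03%. They were Ccne1, Ccne2, Cdc6, Mcm2, Mcm4, Mcm6, Mcm10, Orc1, Rrm1 and Rrm2. No member was higher at an unadjusted p under 0.05, and DESeq2 and limma on FPKM values called 0 higher. The median over the 41 members was -0.18, and that of all genes tested 0.00. Without overlap between genotypes, 23 members were lower on day 1, against 18.9% of all genes tested. The count was lower without any 1 of the day 1 libraries. It was 5, 6 and 8 without WT replicates 1, 2 and 3, and 4, 6 and 5 without replicates 1, 2 and 3 of the Bcl3-/- libraries. In these fits the median of the members stayed between -0.21 and -0.15. Ccne1, Ccne2, Rrm1 and Rrm2 were called whichever of the 12 libraries was left out.

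On day 3, 21 of 41 members were lower in libraries labelled Bcl3-/-, against 5.6% of all genes tested, and 0 were higher, against 4.78%. No member had an estimate above 0, and DESeq2 and limma on FPKM values called 0 higher. The median was -0.37, and that of all genes tested 0.00. Without overlap, 26 members were lower, against 15.6% of all genes tested. Cdc6, Orc1, Mcm2, Mcm3, Mcm5, Mcm6, Mcm10, Cdc45, Prim1, Lig1, Rrm1, Rrm2, Tk1, Ccne1 and Ccne2 were called whichever library was left out. In a fit to the 6 day 3 libraries alone the count was 12, and Orc1, Prim1, Lig1, Rfc5 and Chaf1a were among the members not called in it. The genotype and time comparisons share libraries, so their counts are not independent of each other.

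**Figure D3:**
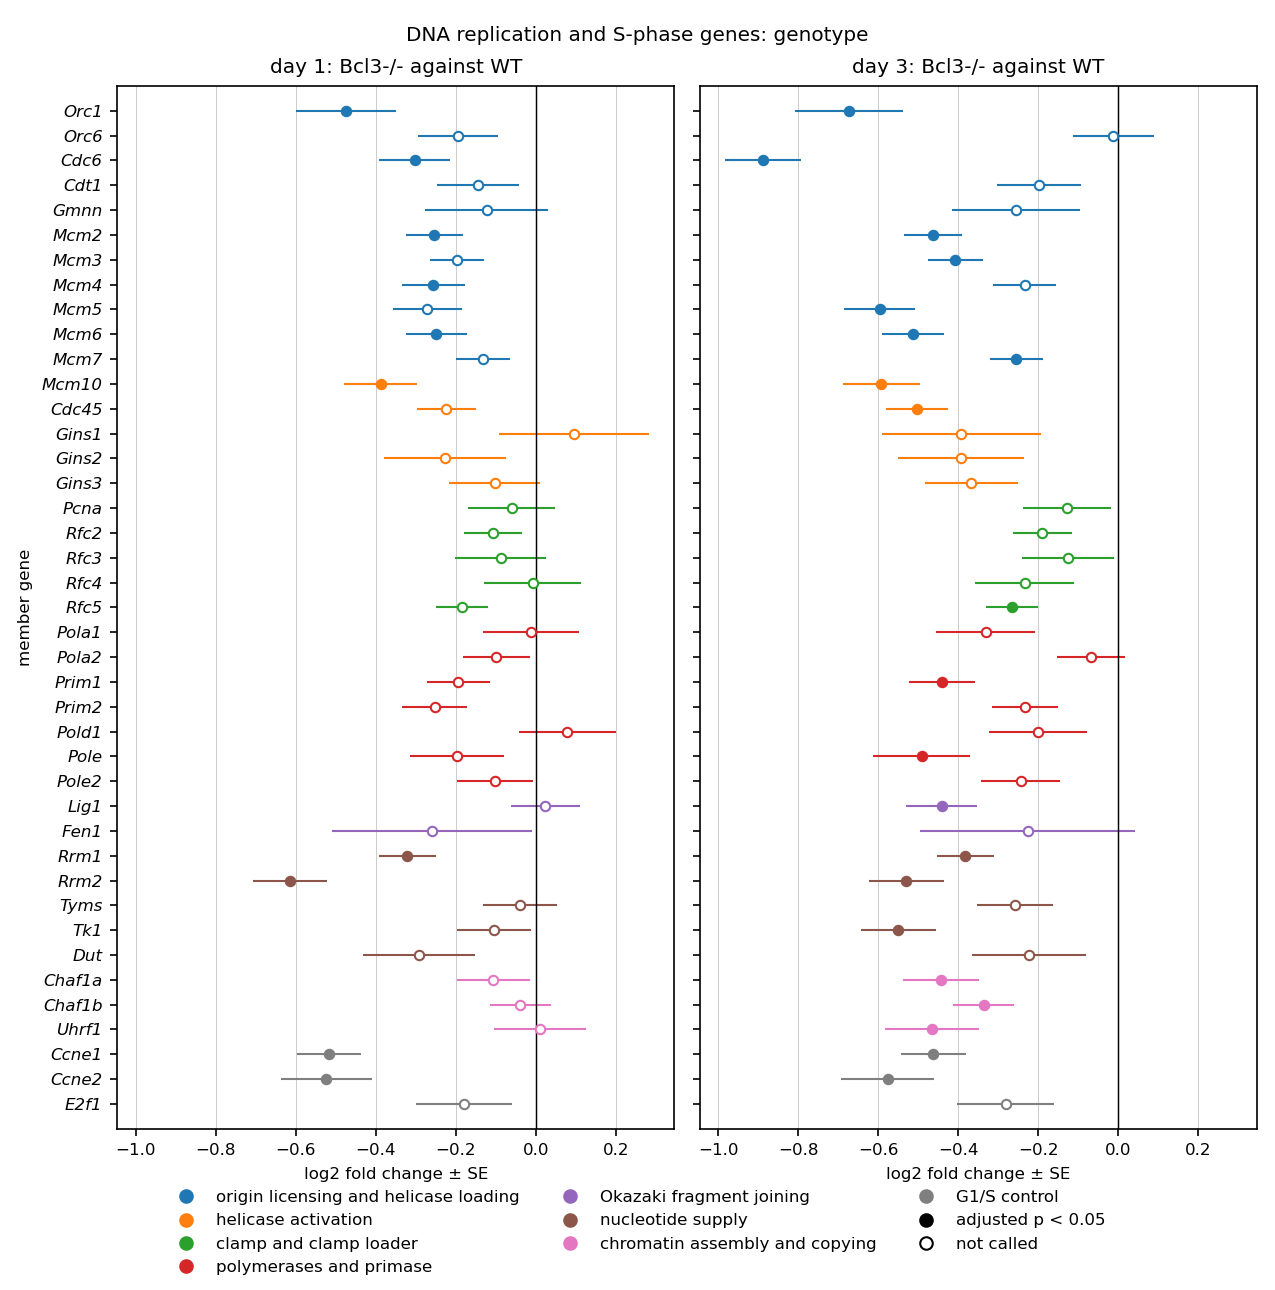
Log2 fold change ± SE (horizontal axis) of each member (vertical axis, colored by role) in libraries labelled Bcl3-/- against WT on day 1 (left) and day 3 (right). Filled points have an adjusted p under 0.05; on day 1 estimates run from -0.62 for Rrm2 to 0.10 for Gins1, and on day 3 from -0.89 for Cdc6 to -0.01 for Orc6.

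Among the 11 genes of origin licensing and helicase loading, 5 were lower by genotype on day 1 and 7 on day 3, and 11 fell over time in WT and 10 in Bcl3-/- cultures. The shares of all genes tested called lower were 6.26, 5.6, 17.9 and 17.2% in the same order. Cdc6, the ATPase that helps place the helicase on origins, measured 30.8, 30.2 and 30.4 CPM for WT against 23.2, 24.7 and 26.2 for Bcl3-/- on day 1, and 16.5, 16.1 and 13.7 against 8.91, 7.68 and 8.42 on day 3. The 4 groups did not overlap, and the WT libraries of day 1 were within 1 CPM of each other. Cdc6 was lower on the log2 scale at -0.30 (SE 0.09, adjusted p = 0.0385) on day 1 and at -0.89 (SE 0.09, adjusted p = 0.000679) on day 3, the lowest fold change of all members on that day. The day 1 call was lost without any 1 of the 6 day 1 libraries, with adjusted p between 0.0546 and 0.135, while the estimate stayed between -0.35 and -0.26. Over time its log2 fold change was -0.98 (SE 0.09, adjusted p = 1.39e-05) in WT and -1.57 (SE 0.09, adjusted p = 1.18e-06) in Bcl3-/- cultures, the latter a 2.96-fold fall and the lowest of all members.

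Orc1, the large subunit that joins the origin recognition complex in G1, measured 17.8, 17.3 and 14.8 CPM for WT against 11.7, 12.5 and 11.7 for Bcl3-/- on day 1, and 8.23, 6.69 and 6.10 against 3.93, 4.70 and 4.52 on day 3. Groups were apart here too, and the day 3 levels of Bcl3-/- libraries were all under 5 CPM. By genotype its log2 fold changes were -0.47 (SE 0.12, adjusted p = 0.0235) and -0.67 (SE 0.13, adjusted p = 0.00938) on the 2 days. The day 1 call was lost without WT replicate 1 or 2 or any 1 of the Bcl3-/- replicates of that day, with adjusted p between 0.0518 and 0.0811. The day 3 call of Orc1 was lost in an edgeR fit to the day 3 libraries alone (adjusted p = 0.0621) and by limma on log2(FPKM + 1) (adjusted p = 0.057). Orc1 fell over time, at -1.25 (SE 0.13, adjusted p = 2.47e-05) in WT and -1.45 (SE 0.13, adjusted p = 1.46e-05) in Bcl3-/- cultures. Orc6, the smallest subunit of the same complex, measured 37.4, 42.8 and 38.3 CPM for WT against 36.9, 33.2 and 33.5 for Bcl3-/- on day 1, and 30.3, 33.1 and 27.9 against 32.2, 32.2 and 25.9 on day 3. The day 3 genotypes of Orc6 overlapped, with a log2 fold change of -0.01 (SE 0.10, adjusted p = 0.953), the highest of all members, and the sign turned in several alternative fits. Over time Orc6 fell in WT at -0.38 (SE 0.10, adjusted p = 0.0103), a call that did not hold when day 3 WT replicate 3 was left out (adjusted p = 0.0536). In Bcl3-/- cultures edgeR did not call it, at -0.20 (SE 0.10, adjusted p = 0.155), and limma on FPKM values with a minimum did (adjusted p = 0.0375).

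Cdt1, which brings the helicase to Cdc6 and the origin, measured 19.8, 22.2 and 22.3 CPM for WT against 19.2, 19.8 and 19.3 for Bcl3-/- on day 1, and 17.2, 17.2 and 13.2 against 13.2, 14.1 and 14.2 on day 3. Gmnn, or geminin, which binds Cdt1 and blocks it after licensing, measured 14.8, 21.1 and 16.4 CPM for WT against 16.5, 14.1 and 17.6 for Bcl3-/- on day 1, and 9.11, 11.7 and 10.5 against 10.0, 8.61 and 7.42 on day 3. In neither gene were the genotypes apart on day 1 or day 3. Cdt1 was at -0.14 (SE 0.10, adjusted p = 0.401) on day 1 and -0.20 (SE 0.11, adjusted p = 0.254) on day 3, called on day 3 without WT replicate 3 of that day (adjusted p = 0.0449), and Gmnn at -0.12 (SE 0.15, adjusted p = 0.666) and -0.25 (SE 0.16, adjusted p = 0.34). Both fell over time, Cdt1 at -0.44 (SE 0.10, adjusted p = 0.00536) in WT and -0.49 (SE 0.10, adjusted p = 0.00379) in Bcl3-/- cultures. Gmnn fell, at -0.75 (SE 0.16, adjusted p = 0.00257) and -0.88 (SE 0.16, adjusted p = 0.00143) in the same cultures. Among the 6 helicase subunits the log2 fold change on day 3 by genotype ran from -0.60 for Mcm5 to -0.23 for Mcm4. Of the 6, 5 were called, against 5.6% of all genes tested called lower. Mcm4 was the one member called lower on day 1 and not on day 3, at -0.26 (SE 0.08, adjusted p = 0.0448) and -0.23 (SE 0.08, adjusted p = 0.0794). All 6 subunits fell over time in both cultures, against 17.9% of all genes tested in WT and 17.2% in Bcl3-/- cultures.

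Of the 5 genes of helicase activation, 1 was lower by genotype on day 1, 2 on day 3, and 4 fell in WT and 5 in Bcl3-/- cultures over time. Shares of all genes tested called lower were 6.26, 5.6, 17.9 and 17.2% in the same order. Mcm10, which helps the loaded helicase open the origin, measured 34.8, 34.3 and 32.0 CPM for WT against 24.2, 26.1 and 27.0 for Bcl3-/- on day 1, and 18.9, 15.4 and 16.3 against 10.2, 11.7 and 11.7 on day 3. The groups of Mcm10 did not overlap. It was at -0.39 (SE 0.09, adjusted p = 0.0144) on day 1 and -0.59 (SE 0.10, adjusted p = 0.00373) on day 3 by genotype. The day 1 call was lost without day 1 Bcl3-/- replicate 1 (adjusted p = 0.0527) and with FPKM values in place of counts. Over time Mcm10 fell, at -0.998 (SE 0.09, adjusted p = 1.43e-05) in WT and -1.20 (SE 0.10, adjusted p = 5.01e-06) in Bcl3-/- cultures. Cdc45, which forms the active helicase with GINS and the Mcm ring, measured 30.8, 30.3 and 28.7 CPM for WT against 25.9, 26.1 and 24.9 for Bcl3-/- on day 1, and 18.1, 16.7 and 15.6 against 12.0, 11.4 and 12.1 on day 3. Its groups were apart as well, although the day 1 difference of -0.22 (SE 0.07, adjusted p = 0.0641) did not pass edgeR's test. At a like estimate it was called by DESeq2 (adjusted p = 0.0461), with the culture block (adjusted p = 0.0493) and without day 3 WT replicate 1 (adjusted p = 0.0466). On day 3 it was lower at -0.50 (SE 0.08, adjusted p = 0.00306), and over time it fell, at -0.84 (SE 0.08, adjusted p = 1.32e-05) in WT and -1.11 (SE 0.08, adjusted p = 2.47e-06) in Bcl3-/- cultures. Gins1, a subunit of GINS, measured 5.79, 5.74 and 6.02 CPM for WT against 6.40, 6.95 and 5.40 for Bcl3-/- on day 1, and 3.41, 5.16 and 3.79 against 3.58, 3.47 and 2.26 on day 3. It had the highest day 1 fold change of all members, at 0.10 (SE 0.19, adjusted p = 0.798), and its genotypes overlapped on both days. Gins1 fell over time in Bcl3-/- cultures at -0.99 (SE 0.20, adjusted p = 0.00245) and was not called by edgeR in WT, at -0.50 (SE 0.19, adjusted p = 0.0538). In WT it was called by DESeq2 (adjusted p = 0.0362), by limma on log2(FPKM + 1) (adjusted p = 0.0499), with the culture block (adjusted p = 0.032), without day 3 WT replicate 2 (adjusted p = 0.0178) and without day 3 Bcl3-/- replicate 3 (adjusted p = 0.0275).

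For the clamp and its loader, 0 of 5 genes were called by genotype on day 1 (1 at an unadjusted p under 0.05 by edgeR, 1 after adjustment by DESeq2, Rfc5) and 1 on day 3, and over time 2 fell in WT and 4 in Bcl3-/- cultures. By edgeR 6.26, 5.6, 17.9 and 17.2% of all genes tested were called lower in the same order. Pcna, the ring that holds polymerases on DNA, measured 57.5, 67.2 and 63.5 CPM for WT against 65.2, 55.9 and 59.6 for Bcl3-/- on day 1, and 48.1, 58.5 and 49.1 against 53.0, 48.3 and 40.9 on day 3. Neighboring groups of Pcna overlapped in all but the time comparison of Bcl3-/- cultures. It was at -0.06 (SE 0.11, adjusted p = 0.78) and -0.13 (SE 0.11, adjusted p = 0.499) by genotype on days 1 and 3. Over time it was at -0.28 (SE 0.11, adjusted p = 0.0648) in WT, where limma on log2(FPKM + 1) called it (adjusted p = 0.00612), as did edgeR without day 1 WT replicate 1 (adjusted p = 0.0492), day 3 WT replicate 2 (adjusted p = 0.0274) or day 3 Bcl3-/- replicate 3 (adjusted p = 0.0361). It was at -0.34 (SE 0.11, adjusted p = 0.0303) in Bcl3-/- cultures, a fall that did not hold when WT replicate 3 of day 1, Bcl3-/- replicate 1 or 3 of day 1, or Bcl3-/- replicate 2 or 3 of day 3 was left out (adjusted p from 0.051 to 0.139).

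Rfc5, a subunit of the clamp loader, measured 57.7, 59.6 and 60.1 CPM for WT against 53.5, 52.8 and 49.8 for Bcl3-/- on day 1, and 35.6, 37.8 and 36.3 against 28.6, 31.9 and 30.7 on day 3. It was the one gene of this role called by genotype, at -0.27 (SE 0.07, adjusted p = 0.0236) on day 3, after -0.18 (SE 0.06, adjusted p = 0.0738) on day 1. The day 3 call was lost without any 1 of 7 libraries, namely day 1 WT replicate 2, the 3 day 1 Bcl3-/- libraries, day 3 WT replicates 1 and 2 and day 3 Bcl3-/- replicate 1, with adjusted p between 0.0543 and 0.0795, and with FPKM values. By edgeR the day 3 call was also lost in a fit to the day 3 libraries alone (adjusted p = 0.127) and with no count filter (adjusted p = 0.0641). Rfc5 fell over time, at -0.69 (SE 0.06, adjusted p = 1.43e-05) in WT and -0.77 (SE 0.07, adjusted p = 7.32e-06) in Bcl3-/- cultures. Rfc3, another subunit, measured 19.2, 20.4 and 19.9 CPM for WT against 20.1, 17.97 and 17.9 for Bcl3-/- on day 1, and 16.2, 18.5 and 17.9 against 17.6, 17.6 and 12.8 on day 3. It moved least of all members in WT, at -0.18 (SE 0.11, adjusted p = 0.244), and was at -0.22 (SE 0.12, adjusted p = 0.167) in Bcl3-/- cultures by edgeR, where limma on FPKM values with a minimum called it (adjusted p = 0.0446). By genotype Rfc3 was at -0.09 (SE 0.11, adjusted p = 0.681) and -0.13 (SE 0.12, adjusted p = 0.529).

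All 7 polymerase and primase genes fell over time in both cultures, by 0.47 to 0.74 log2 units in WT and by 0.51 to 1.03 in Bcl3-/- cultures. Over time 17.9% of all genes tested were called lower in WT and 17.2% in Bcl3-/- cultures. By genotype edgeR called 0 of the 7 on day 1 (2 at an unadjusted p under 0.05) and 2 on day 3, Prim1 and Pole. The shares of all genes tested called lower were 6.26% on day 1 and 5.6% on day 3. On day 1 DESeq2 called Prim2, limma on log2(FPKM + 1) called 0 of these genes, and limma with a minimum FPKM called Prim1 (adjusted p = 0.0462) and Prim2 (adjusted p = 0.0342). Prim1, the catalytic subunit of the primase that starts each new strand, measured 27.0, 27.7 and 27.7 CPM for WT against 24.3, 23.3 and 24.4 for Bcl3-/- on day 1, and 18.6, 20.8 and 17.8 against 14.6, 14.4 and 12.9 on day 3. It was at -0.19 (SE 0.08, adjusted p = 0.126) on day 1 and lower at -0.44 (SE 0.08, adjusted p = 0.00658) on day 3. An edgeR fit to the day 3 libraries alone did not call Prim1 (adjusted p = 0.0713). Prim2, the partner subunit of the primase, measured 26.9, 25.2 and 26.6 CPM for WT against 21.6, 21.2 and 23.2 for Bcl3-/- on day 1, and 18.1, 18.4 and 17.2 against 15.5, 16.3 and 13.7 on day 3. Both primase genes had 4 groups apart. By edgeR Prim2 was not called on either day, at -0.25 (SE 0.08, adjusted p = 0.0542) and -0.23 (SE 0.08, adjusted p = 0.0933). DESeq2 called Prim2 on day 1 (adjusted p = 0.0314), and limma on log2(FPKM + 1) called it on day 3 (adjusted p = 0.0487). Over time Prim1 fell, at -0.53 (SE 0.08, adjusted p = 0.000292) in WT and -0.78 (SE 0.08, adjusted p = 3.65e-05) in Bcl3-/- cultures. Prim2 fell, at -0.55 (SE 0.08, adjusted p = 0.000252) and -0.53 (SE 0.08, adjusted p = 0.000523). Pole, the catalytic subunit of the leading strand polymerase, was at -0.49 (SE 0.12, adjusted p = 0.0237) by genotype on day 3.

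Lig1, the ligase that joins Okazaki fragments, measured 50.6, 46.9 and 54.8 CPM for WT against 53.3, 51.7 and 49.8 for Bcl3-/- on day 1, and 38.2, 32.9 and 31.6 against 26.8, 24.8 and 23.8 on day 3. The genotypes overlapped on day 1, at 0.02 (SE 0.09, adjusted p = 0.894), and were apart on day 3, at -0.44 (SE 0.09, adjusted p = 0.0097). The day 3 call of Lig1 was lost in an edgeR fit to the day 3 libraries alone (adjusted p = 0.0619). Lig1 fell over time, at -0.57 (SE 0.09, adjusted p = 0.00034) in WT and -1.03 (SE 0.09, adjusted p = 8.76e-06) in Bcl3-/- cultures. Fen1, the nuclease that trims the flap of each fragment, could not be measured well by counting. In the annotation 84.2% of its 2422 exonic bases overlap exons of Gm10143 or Tmem258 on the opposite strand, and the strand setting of the counting is not given in the sources used here. Its counts gave 2.35, 3.82 and 2.40 CPM for WT against 2.73, 1.84 and 2.64 for Bcl3-/- on day 1, and 1.86, 2.21 and 1.35 against 1.43, 1.75 and 1.42 on day 3. The FPKM values (fragments scaled to exon length and library depth) of the same libraries were 29.8, 29.2 and 26.9 FPKM for WT against 22.7, 24.1 and 22.3 for Bcl3-/- on day 1, and 18.9, 17.3 and 15.3 against 10.5, 11.2 and 13.4 on day 3. By FPKM the 4 groups of Fen1 did not overlap, whereas by counts neighboring genotypes did. Counts gave -0.68 (SE 0.25, adjusted p = 0.0524) over time in WT and -0.64 (SE 0.26, adjusted p = 0.0796) in Bcl3-/- cultures, and DESeq2 called the WT change (adjusted p = 0.0498). With limma on log2(FPKM + 1) the changes were -0.71 (adjusted p = 0.000957) and -0.93 (adjusted p = 0.000314), and -0.52 (adjusted p = 0.0225) by genotype on day 3. On day 1 Fen1 was called by neither, at -0.26 (SE 0.25, adjusted p = 0.554) by counts and -0.30 (adjusted p = 0.123) by FPKM. Gins2 and Chaf1a also share over 50% of their exonic bases with other genes on the opposite strand (67.3% with Gse1 and 52.5% with Ubxn6), so their counts carry the same uncertainty.

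All 5 nucleotide supply genes fell over time in both cultures, against 17.9% of all genes tested in WT and 17.2% in Bcl3-/- cultures. By genotype 2 were lower on day 1, against 6.26%, and 3 on day 3, against 5.6%. Rrm2, the subunit of ribonucleotide reductase made in S phase, measured 469.9, 422 and 376 CPM for WT against 277, 266 and 284 for Bcl3-/- on day 1, and 177, 158 and 144 against 108, 106 and 118 on day 3. Each group lay below the one before it, and the highest day 3 Bcl3-/- library lay below every library of the other groups. Rrm2 had the lowest fold change of all members on day 1, at -0.62 (SE 0.09, adjusted p = 0.00161), and was lower on day 3 at -0.53 (SE 0.09, adjusted p = 0.00517). It was also lowest over time in WT, at -1.40 (SE 0.09, adjusted p = 4.72e-06), a 2.65-fold fall, and fell, at -1.32 (SE 0.09, adjusted p = 2.69e-06) in Bcl3-/- cultures. Rrm1, the large subunit of the same enzyme, moved less, at -0.70 (SE 0.07, adjusted p = 2.41e-05) over time in WT and -0.76 (SE 0.07, adjusted p = 1.64e-05) in Bcl3-/- cultures. On the FPKM scale, which allows levels of different genes to be set side by side, the ratio of Rrm2 to Rrm1 was 2.06 ± 0.14 for WT and 1.69 ± 0.01 for Bcl3-/- on day 1 (SD, n = 3). On day 3 it was 1.28 ± 0.15 and 1.13 ± 0.09 (SD, n = 3), and the genotypes overlapped. This ratio was chosen after its values were seen and was not tested. Tk1, the thymidine kinase of the salvage pathway, measured 50.4, 55.1 and 60.1 CPM for WT against 52.3, 50.5 and 51.4 for Bcl3-/- on day 1, and 31.2, 33.8 and 29.4 against 22.6, 23.0 and 18.7 on day 3. Its day 1 genotypes overlapped, at -0.10 (SE 0.09, adjusted p = 0.506), and its day 3 genotypes did not, at -0.55 (SE 0.09, adjusted p = 0.00467). Tk1 fell over time, at -0.81 (SE 0.09, adjusted p = 4.59e-05) in WT and -1.26 (SE 0.09, adjusted p = 3.4e-06) in Bcl3-/- cultures. Tyms, which makes thymidylate, and Dut, which removes dUTP, were not called by genotype on either day by edgeR.

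The 3 genes of chromatin assembly and copying were lower by genotype on day 3 in 3 of 3 cases and on day 1 in 0 (0 at an unadjusted p under 0.05, by edgeR). Of all genes tested, 5.6% were called lower on day 3 and 6.26% on day 1. Chaf1a, the large subunit of the factor that places histones on new DNA, measured 48.3, 46.8 and 51.4 CPM for WT against 43.9, 47.4 and 44.8 for Bcl3-/- on day 1, and 33.2, 27.8 and 26.4 against 20.8, 20.1 and 23.4 on day 3. Its genotypes overlapped on day 1 and were apart on day 3, with log2 fold changes of -0.11 (SE 0.09, adjusted p = 0.499) and -0.44 (SE 0.09, adjusted p = 0.0123). By edgeR the day 3 call was lost without day 3 Bcl3-/- replicate 2 (adjusted p = 0.0591) and in a fit to the day 3 libraries alone (adjusted p = 0.0747). Chaf1a fell over time, at -0.75 (SE 0.09, adjusted p = 8.03e-05) in WT and -1.08 (SE 0.09, adjusted p = 9.43e-06) in Bcl3-/- cultures. Chaf1b was at -0.34 (SE 0.08, adjusted p = 0.0174) and Uhrf1, which recruits the maintenance methyltransferase to replicated DNA, at -0.47 (SE 0.12, adjusted p = 0.0261) by genotype on day 3.

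For G1/S control, both E-type cyclins were lower by genotype on both days, and E2f1 was called on neither. Of all genes tested, 6.26% were called lower on day 1 and 5.6% on day 3. Ccne1, cyclin E1, measured 73.9, 68.9 and 61.5 CPM for WT against 47.9, 46.3 and 48.5 for Bcl3-/- on day 1, and 40.1, 37.6 and 35.7 against 27.6, 28.9 and 25.7 on day 3. Ccne2, cyclin E2, measured 81.7, 67.3 and 63.0 CPM for WT against 52.9, 48.4 and 46.0 for Bcl3-/- on day 1, and 45.3, 40.4 and 39.4 against 24.2, 28.7 and 31.0 on day 3. The groups of each cyclin did not overlap, and in both genes the WT libraries of day 1 were the most spread. Ccne1 was at -0.52 (SE 0.08, adjusted p = 0.00184) on day 1 and -0.46 (SE 0.08, adjusted p = 0.0053) on day 3 by genotype, and Ccne2 at -0.52 (SE 0.11, adjusted p = 0.00961) and -0.58 (SE 0.12, adjusted p = 0.00952). Over time Ccne1 fell, at -0.85 (SE 0.08, adjusted p = 1.61e-05) in WT and -0.79 (SE 0.08, adjusted p = 3.15e-05) in Bcl3-/- cultures. Ccne2 fell, at -0.76 (SE 0.11, adjusted p = 0.000285) and -0.81 (SE 0.12, adjusted p = 0.000308). E2f1, a transcription factor that activates replication genes, measured 53.0, 48.8 and 56.7 CPM for WT against 47.0, 45.8 and 47.2 for Bcl3-/- on day 1, and 45.9, 37.7 and 33.2 against 32.5, 27.6 and 36.1 on day 3. Its genotypes were apart on day 1 and overlapped on day 3, at -0.18 (SE 0.12, adjusted p = 0.364) and -0.28 (SE 0.12, adjusted p = 0.161). E2f1 fell over time, at -0.44 (SE 0.12, adjusted p = 0.0117) in WT, a call that did not hold when day 3 WT replicate 3 was left out (adjusted p = 0.0593), and, without such a loss in any of these 12 fits, at -0.54 (SE 0.12, adjusted p = 0.00492) in Bcl3-/- cultures.

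**Figure D4:**
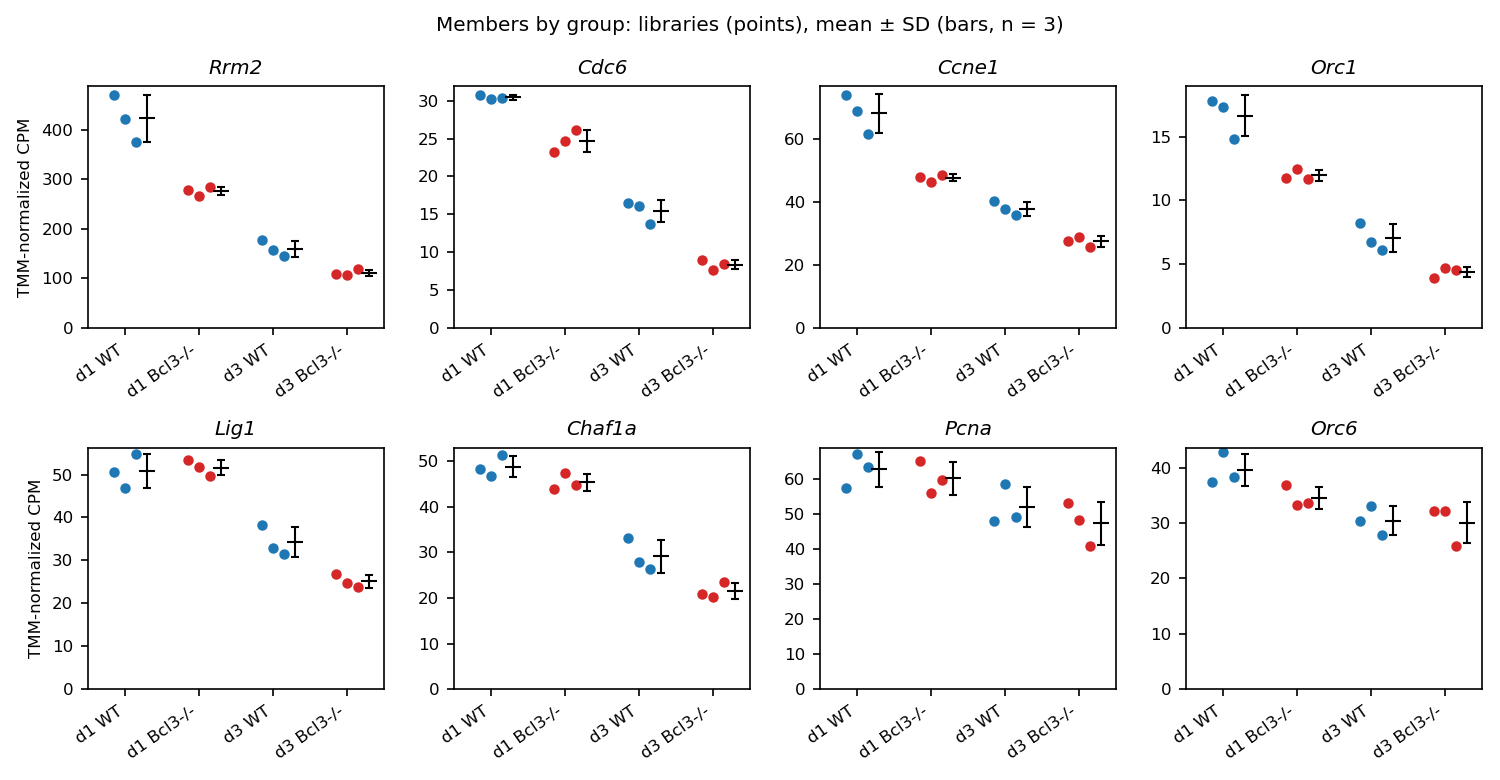
TMM-normalized CPM (vertical axes, from 0) of 8 members in the 3 libraries of each group (horizontal axes; d1 and d3 are days 1 and 3). Points are libraries, blue for WT and red for Bcl3-/-, and bars are the mean ± SD (n = 3); Rrm2, Cdc6, Ccne1 and Orc1 step down through the 4 groups, Lig1 and Chaf1a separate by genotype on day 3 and not on day 1, and Pcna and Orc6 overlap between genotypes on day 3.

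Whether the fall over time differed between genotypes was tested with the interaction. edgeR called 0 members lower, against 0.95% of all genes tested, and 0 higher, against 0.172%. At an unadjusted p under 0.05 there were 11 members by edgeR, 9 by DESeq2 and 13 of 38 by limma on log2(FPKM + 1), and after adjustment DESeq2 called 2 and limma 0. The median interaction was -0.20 over the members and -0.01 over all genes tested. The smallest p was that of Cdc6, at -0.59 (SE 0.13, adjusted p = 0.056) by edgeR. The adjusted p of Cdc6 was 0.0461 without day 3 WT replicate 3, 0.0418 without day 3 Bcl3-/- replicate 1, 0.0335 with no count filter and 0.0101 by DESeq2, and under the other alternatives it lay above 0.05, up to 0.2001. Lig1 followed at -0.47 (SE 0.12, adjusted p = 0.116) and Tk1 at -0.45 (SE 0.13, adjusted p = 0.157), and DESeq2 also called Lig1 (adjusted p = 0.0499). A larger effect on day 3 than on day 1 is therefore not shown for Lig1, Tk1 or the chromatin assembly genes by the edgeR fit. Within cultures, the day 1 to day 3 change of Cdc6 in log2 CPM was -0.90, -0.90 and -1.15 in WT and -1.38, -1.68 and -1.63 in Bcl3-/- cultures. On this log2 scale the change was larger in each Bcl3-/- culture than in each WT culture, which did not hold for the difference in CPM. Cdc6 was picked for its interaction p, so this rereads the same values and adds no support.

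Levels of different members were compared by FPKM, which is per length and was usable for 38 of the 41 members (not Cdt1, Gins2 or Dut). Rrm2 was the highest in every group, from a mean of 232 ± 31.7 FPKM (SD, n = 3) in the first group, WT on day 1, to 56.2 ± 4.72 FPKM (SD, n = 3) in the last. Orc1 was the lowest, from 5.57 ± 0.684 to 1.33 ± 0.0989 FPKM (SD, n = 3). The 6 subunits of the Mcm ring, which assemble in equal numbers, lay within a factor of 1.84 to 2.08 of each other in the 4 groups. Mcm6 was the highest of them throughout, and in group order its means were 77.3 ± 4.16, 63.8 ± 2.99, 51.2 ± 3.60 and 34.1 ± 1.54 FPKM (SD, n = 3). The 4 clamp loader subunits were less even, with Rfc2 above Rfc3 by a factor of 3.34 to 4.11.

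Other replication and S-phase genes outside the list were mostly below 0 as well, with estimates below 0 for 44 of 58 by genotype on day 1, 43 on day 3, 53 over time in WT and 49 in Bcl3-/- cultures. Of these 58, 9 were lower by genotype on day 1 (3 without WT replicate 1, 4 without WT replicate 2, and 4, 5 and 4 without Bcl3-/- replicates 1, 2 and 3 of that day) and 20 on day 3 (11 without WT replicate 1 or Bcl3-/- replicate 2 of that day, and 8 in a fit to the day 3 libraries alone), and 37 fell over time in WT and 35 in Bcl3-/- cultures, against the shares of all genes tested given above. Rpa1, which coats single-stranded DNA, was at -0.56 (SE 0.09, adjusted p = 0.00263) on day 1 and -0.50 (SE 0.09, adjusted p = 0.00706) on day 3. Ticrr, a factor needed to fire origins, fell over time, at -0.85 (SE 0.11, adjusted p = 0.000135) in WT and -1.44 (SE 0.12, adjusted p = 6.38e-06) in Bcl3-/- cultures. Ccna2, cyclin A2 of S phase and G2, was at -0.13 (SE 0.07, adjusted p = 0.28) on day 1 and -0.58 (SE 0.07, adjusted p = 0.00137) on day 3. The 1 gene of this list called higher in any comparison was Samhd1, which breaks down deoxynucleotides, at 0.41 (SE 0.10, adjusted p = 0.00518) over time in WT. These 4 genes were chosen after their values were seen. Of 29 mitosis genes, 5 were lower by genotype on day 1, against 6.26% of all genes tested. On day 3, 25 were lower, against 5.6%. All 29 fell over time in both cultures, against 17.9% of all genes tested in WT and 17.2% in Bcl3-/- cultures. Their medians were -0.95 in WT and -1.22 in Bcl3-/- cultures. The day 1 count of mitosis genes was between 1 and 3 without any 1 of the day 1 libraries or without Bcl3-/- replicate 1 or 2 of day 3.

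Markers of the cell types the cultures could hold moved between the same groups. Summed over 10 osteoblast markers, levels on day 1 ran over 38264 to 55341 CPM for WT and 65358 to 68579.6 CPM for Bcl3-/-, and on day 3 over 78279.9 to 84952 and 80629 to 86724 CPM. Col1a1 and Col1a2 made up most of this sum, and single markers differed in direction. Over time in WT 4 of the 10 were called higher, against 20.6% of all genes tested, and 2 lower, against 17.9%. In Bcl3-/- cultures 4 were called higher, against 16.2%, and 3 lower, against 17.2%. Sp7 and Alpl were lower in both. By genotype on day 1, 5 were called higher, against 9.03% of all genes tested, and 1 lower, against 6.26%. On day 3, 3 were called higher, against 4.78%, and 1 lower, against 5.6%. The 12 macrophage markers summed to 311 to 493, 367 to 400.5, 681 to 1004 and 419.6 to 810.2 CPM in the same order of groups, with Lyz2 the largest part of each sum. Over time 8 of the 12 were called higher in WT, against 20.6% of all genes tested, and 6 in Bcl3-/- cultures, against 16.2%, where Cx3cr1 was called lower. By genotype 0 macrophage markers were called on day 1 (2 at an unadjusted p under 0.05, by edgeR). On day 3 Csf1r and Cx3cr1 were called lower, against 5.6% of all genes tested, with a median of -0.73 over the 12. For 7 osteoclast markers the sums were 133 to 168, 184 to 213, 261 to 358 and 398 to 423 CPM, with the calcitonin receptor Calcr under 0.1 CPM in all libraries. Ctsk made up most of that sum. Over time 3 of the 6 osteoclast markers tested were called higher in each genotype. The shares of all genes tested were 20.6% in WT and 16.2% in Bcl3-/- cultures. Dcstamp was called lower in Bcl3-/- cultures, against 17.2% of all genes tested. By genotype 1 osteoclast marker was called higher on day 1, against 9.03%, and 0 were called on day 3. Smooth muscle markers summed to 2999 to 3284, 2666 to 2789.9, 2568 to 3003 and 1990.0 to 2247 CPM, and chondrocyte markers to 775 to 2480.4, 791 to 1116, 365 to 1526 and 342 to 441 CPM. By genotype 3 of 8 smooth muscle markers were called lower on day 1, against 6.26% of all genes tested. On day 3, 4 were, against 5.6%. Over time 3 were called lower in WT, against 17.9%, and 4 in Bcl3-/- cultures, against 17.2%. In these comparisons 0 smooth muscle markers were called higher. Of the 6 chondrocyte markers tested, 1 was called higher by genotype on day 1, against 9.03%. On day 3, 1 was higher, against 4.78%, and 1 lower, against 5.6%. Sums for endothelial, skeletal muscle, adipocyte and lymphocyte markers were under 25 CPM in every library, and Lep, Myf5, Pax7 and Hbb-bt were under 0.1 CPM in all libraries. The 13 mitochondrial mRNAs summed to 2799 to 3107, 2980.1 to 3503, 3027 to 3699.6 and 3377 to 4719.8 CPM, with the last 2 ranges overlapping. By genotype 0 were called on day 1, and 2 were called higher on day 3, against 4.78% of all genes tested. Their day 3 median was 0.42. Over time 1 was called higher in WT, against 20.6%, and 5 in Bcl3-/- cultures, against 16.2%, where the median was 0.55. In these 4 comparisons 0 were called lower. The part of these differences in the results for the members was not tested.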

How the data were processed

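PolyA RNA of 12 libraries was sequenced by the authors after cDNA synthesis with a SMART-Seq kit, which does not keep strand. Per the labels, reads were trimmed with Trim Galore and aligned to GRCm38 with TopHat2. Counts deposited by the authors are whole reads assigned to genes by HTSeq, and the deposited FPKM values come from Cufflinks; versions, the annotation release and the strand setting are not given in the sources used here. Entries outside genes, 12.27 to 14.72% of counts, were left out, as were 49 repeated entries and 1 stray header line of the FPKM table.

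Genes kept by filterByExpr (16318) were fitted in edgeR 4.0.16 (R 4.3.3) with TMM factors (0.951 to 1.05), 1 quasi-likelihood model of 4 groups, and Benjamini-Hochberg adjustment over all genes within each of 5 comparisons. The biological coefficient of variation was 13.5%. Negative log2 fold changes are lower in Bcl3-/- or on day 3. Log2 CPM used a prior count of 2. No 2 libraries were copies: the chi-square between their counts was at least 8.6 per gene over 66 pairs.

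Between the 2 days, deviations from the group mean had correlations of 0.24 to 0.33 for the 3 WT cultures and of -0.16 to -0.02 for the 3 Bcl3-/- cultures. The days were paired by the labels' culture codes, which the correlations do not bear out for Bcl3-/- cultures, and same-numbered titles do not pair the genotypes (-0.07 to 0.21).

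Alternatives were DESeq2 1.42.0, limma 3.58.1 on log2(FPKM + 1) or log2(FPKM + 0.1), with and without a minimum FPKM of 1 in 3 libraries, upper-quartile or RLE scaling, testing without any filter, a minimum of 1 CPM in 6 libraries, only the libraries compared, replicate blocks, stricter thresholds and leaving out each library. Python 3.11.15, numpy 2.4.6, pandas 2.3.3 and matplotlib 3.10.9 made summaries and figures. Fits were run on simulated data, where the criterion for recovery covered only fold changes larger than those of any member. It was limited to genes above 1 CPM after a first version failed. Recovery of fold changes as small as those of the members was not a criterion.

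Values in every library are given for the member of each role with the smallest p in each group comparison, for the highest and lowest fold changes, for the 3 smallest interaction p-values and for Cdc6, Cdt1, Gmnn, Pcna, Rrm2, Ccne1, Ccne2 and E2f1. The members, roles and other lists were chosen with earlier results of these data known. Positions of exons came from GENCODE M21 and promoters from RefSeq.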

Additional observations from a re-analysis of the deposited data

Results flagged for a closer look

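Nuf2, which encodes a kinetochore protein and is on the mitosis list, had a fall over time that differed between the genotypes, with an interaction of -0.42 (SE 0.09, adjusted p = 0.0444) by edgeR's quasi-likelihood test. It was the 1 of 29 mitosis genes called, against 0.95% of all genes tested called lower. Under 21 alternatives, added after seeing the data, the estimate stayed between -0.45 and -0.37, and 5 of them called it, with adjusted p from 0.00321 to 0.188. With 1 library left out it was called in 1 of 12 fits, without day 1 WT replicate 3. DESeq2 (adjusted p = 0.00321), upper-quartile normalization, the CPM minimum and limma with a minimum FPKM also called it. It was not called with RLE normalization (adjusted p = 0.0524), with no count filter (adjusted p = 0.0564), with the culture block (adjusted p = 0.0816) or by limma on log2(FPKM + 1) (adjusted p = 0.0624).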

How the results depend on the processing

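Directions held widely: the median of the members was below 0 in each of the 4 group comparisons under every alternative fit. Counts of members called over time moved little, from 33 to 39 in WT and from 36 to 38 in Bcl3-/- cultures when single libraries were left out. On day 1 leaving out 1 library gave 4 to 12 members, on day 3 16 to 23, and for the interaction 0 to 1. Day 1 counts were 3 at an adjusted p under 0.01, 6 with no count filter and 15 by DESeq2. With an absolute log2 fold change over 1, counts were 0 on day 1, 0 on day 3, 2 over time in WT and 11 in Bcl3-/- cultures. On day 3 the count was 12 in a fit to only the libraries compared. The interaction gave 1 member with no count filter and 2 by DESeq2. A replicate block by title number gave 7 members on day 1 and 21 on day 3; a block by culture gave 12 and 21, and 39 and 38 over time, and 0 for the interaction. The blocks called 0 members higher. The causes of these moves were not tested.

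Signs turned for estimates near 0 that passed no test. With single libraries left out, day 1 estimates ran from -0.381 to 0.0180 for Fen1, from -0.233 to 0.0388 for Gmnn and from -0.0330 to 0.0857 for Lig1, and day 3 estimates from -0.0729 to 0.0818 for Orc6 and from -0.196 to 0.00331 for Rfc3. Orc6 was at 0.00206 with only the libraries compared and at 0.00015 in the culture block. Interaction estimates were followed for Cdc6, Lig1 and Tk1 alone, a choice made after those of other members, near 0, were seen to change sign. The medians and both comparison lists under these settings were also added after seeing the data.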
